A study of Drosophila melanogaster with 5 samples.

Results

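Sites bound by both Yorkie (Yki) and Scalloped (Sd) but free of RNA polymerase II (Pol II) were examined in Drosophila melanogaster eye imaginal discs, the larval epithelia that give rise to the adult eye. They are Yki peaks, chosen by overlap of the peak calls, that share at least 1 bp with an Sd peak and no base with a Pol II peak. There were 1250 of them among 11679 Yki peaks, or 10.7% (exact 95% interval 10.1 to 11.3); keeping the upper 50% of Sd peaks by score left 702. They are called Pol II-free shared sites below.

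The peaks came from chromatin immunoprecipitation and sequencing (ChIP-seq) of discs from larvae in the third instar, with 3 immunoprecipitations and 2 input DNA samples, 1 library each. The Yki and Sd libraries were from GMR-Gal4; UAS-Drosophila Yki S168A discs, and the Pol II library from GMR-Gal4; UAS-Drosophila Yki-V5 discs. Each genotype also had an input, which was not analysed here. All discs therefore overexpressed a form of Yki, and the labels give ectopic cell proliferation for both genotypes. GMR-Gal4 drives expression in cells behind the morphogenetic furrow of the eye disc, whereas whole discs were used, so a site bound in few cells and a site bound weakly in many cannot be told apart. Antibody and genotype differ together between the Pol II list and the others. A site without a Pol II peak is one where none was called in Yki-V5 discs, and whether it carried Pol II in S168A discs was not measured.

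Yki is the transcriptional coactivator restrained by the Hippo pathway, which limits organ size by having the kinase Warts phosphorylate Yki and keep it out of the nucleus. The S168A change removes a main Warts site. Yki does not bind DNA itself and is brought to target genes by partners, of which the TEAD-family protein Sd is the best known; established targets include genes that drive growth and block cell death. Enhancers of such genes can lie far from the promoters they act on, and promoters of active or paused genes carry Pol II. Peaks outside Pol II are therefore candidate distal elements, but no sequence or gene annotation of the files' genome build (dm3) was used here, so none was assigned to a gene or called an enhancer.

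Each list holds 1 value per peak from the authors' peak caller, called the score. It behaves as a −log10 q value, since the lowest value, 3.01 among Yki peaks, 3.01 among Pol II peaks and 2.00 among Sd peaks, lies just above a whole number, but no source states the unit. Scores were ranked within 1 list and not set against those of another. The Sd list held 2557 peaks and the Pol II list 10105. Read depth is unknown, because the files hold no counts. Membership was decided by these same 3 lists, so every value below is a description without a test. Intervals are exact binomial ones, at 95%, for shares and for medians. They treat peaks as independent, which neighbouring peaks are not, and do not cover differences between libraries.

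Of 2345 Yki peaks with an Sd peak, 1250 had no Pol II peak, or 53.3% (51.3 to 55.3), beside 45.7% of all Yki peaks. The other 1095 also carried Pol II and are called triple sites. Read from the other side, 23.4% of the 5343 Yki peaks outside Pol II carried Sd, beside 20.1% of all Yki peaks. Of the 2557 Sd peaks themselves, 60.2% met no Pol II peak. The remaining 4093 Yki peaks outside Pol II had no Sd peak and are called Yki-only sites. The rule used all of these overlaps, so nothing is read from their sizes.

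The Pol II-free shared sites were spread over the whole range of Yki scores and made up a growing part of the list toward its top. They formed 1.89% of the lowest decile of Yki score (1.19 to 2.84), 9.76% of decile 5, 15.9% of decile 9 and 31.8% of the highest decile (29.1 to 34.5). Triple sites began lower and ended higher, at 0.171% of the lowest decile and 37.6% of the highest, and outnumbered the Pol II-free shared sites in deciles 8, 9 and 10. Below the median Yki score lay 25.5% of Pol II-free shared sites but 6.67% of triple sites. At the extreme top the order turned: of the 100 highest-scoring Yki peaks, 68 were Pol II-free shared sites, 29 were triple sites, 2 had Pol II without Sd and 1 had neither. Among the 500 highest, 235 were Pol II-free shared sites and 200 were triple sites.

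**Figure D1:**
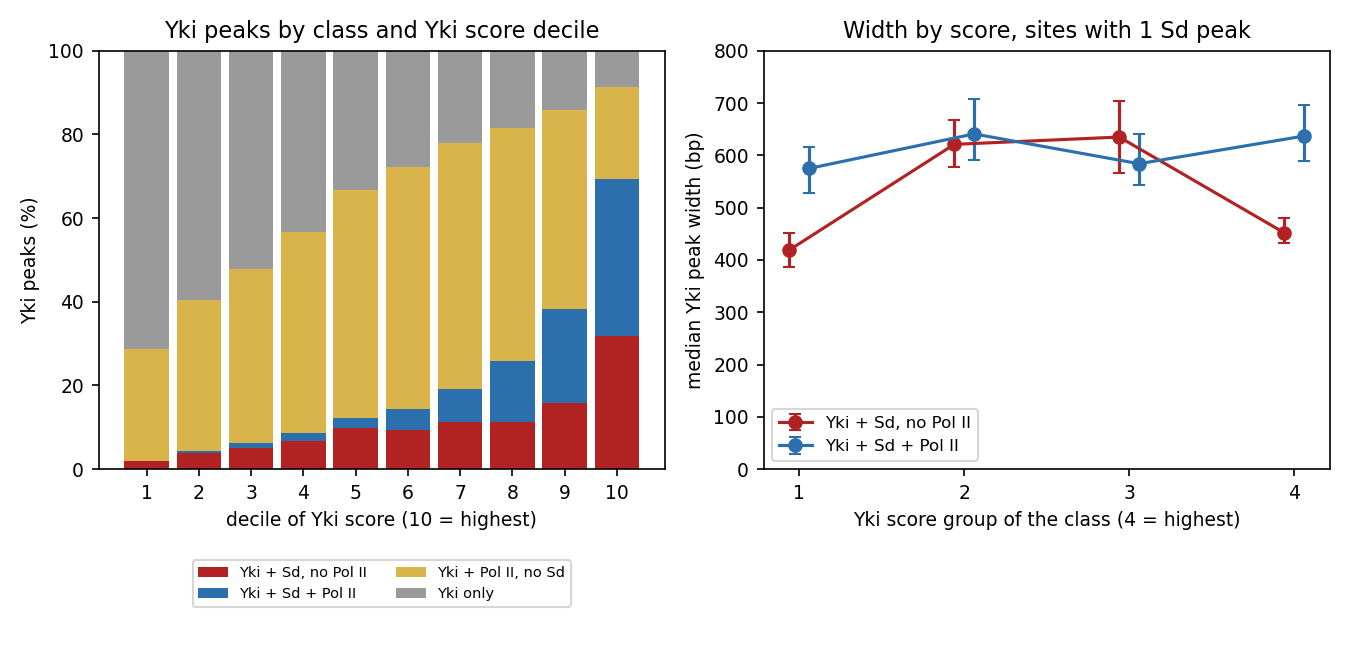
Left, percent of Yki peaks in each of 4 classes by decile of Yki score; the Pol II-free shared sites (red) rise from 1.89% of decile 1 to 31.8% of decile 10. Right, median Yki peak width (bp) by Yki score group (4 equal groups per class, group 4 the highest) for sites with 1 Sd peak, with 95% intervals; in group 4 the Pol II-free shared sites narrow to 452 bp while triple sites stay at 637 bp.

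The median Yki score of the Pol II-free shared sites was 35.4 (quartiles 21.3 and 55.3), against 45.7 for triple sites and 13.2 for Yki-only sites. Their best Sd score had a median of 7.30 (quartiles 5.07 and 9.62), against 6.84 for triple sites (5.08 and 9.24). The Sd scores of the classes thus overlapped almost fully, whereas their Yki scores were further apart. The highest Sd score, 16.3, was shared by 25 Sd peaks, of which 19 lay on Pol II-free shared sites and 6 on triple sites. Of all 2557 Sd peaks, 1322 lay on Pol II-free shared sites and 1178 on triple sites. Across the 1250 sites, which share the same libraries and local chromatin, Yki score and best Sd score rose together with a rho of 0.46 by Spearman and an r of 0.55 by Pearson; across triple sites these were 0.40 and 0.45.

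Pol II-free shared sites were narrower than triple sites and wider than Yki-only sites. Their median width was 529 bp (quartiles 384 and 820, range 200 to 4492), against 636 bp for triple sites and 327 bp for Yki-only sites. A wider peak has more bases with which to meet a Pol II or an Sd peak, so the rule itself favours this order. Of the 1250, 205 were at least 1 kb wide, or 16.4%. Together the sites covered 831 kb, or 14.4% of the bases under Yki peaks.

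Width did not rise steadily with score in this class. The 1187 sites with a single Sd peak were ranked by Yki score and split into 4 groups of equal size, with group 4 the highest. Median width was 419 bp in group 1 (386 to 452), 621 bp in group 2 (578 to 668), 635 bp in group 3 (567 to 703) and 452 bp in group 4 (432 to 481). Triple sites with a single Sd peak, grouped the same way, showed no such narrowing, with medians of 575, 641, 584 and 637 bp. The groups were cut within each class and cover unlike scores. Group 1 ended at 20.9 without Pol II and 33.3 with it, and group 4 began at 55.3 and 59.0. The highest-scoring Pol II-free shared sites were thus compact, and the intervals of group 4 of the 2 classes did not overlap. Yki-only sites, which also lack Pol II, were not grouped in this way. Among those with scores above 55.3, some were narrower than 452 bp and others wider. Whether the narrowing was particular to sites with Sd was therefore not tested.

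The 10 Pol II-free shared sites of highest Yki score showed this compact form. Their scores ran from 112 to 127, they were 389 to 633 bp wide, and each held a single Sd peak. That Sd peak was centred 0.5 to 35 bp from the Yki centre, and 5 of the 10 carried the highest Sd score. The nearest Pol II peak was 3403 bp to 103 kb away, with a median of 17.4 kb, against 6382 bp for the whole class. A longer gap was not a feature of high score in general: with the class split by Yki score into 4 groups of equal size, the median gap was 8426 bp in the lowest, 6412 and 5505 bp in the next 2 and 6114 bp in the highest. The first was a 583 bp peak on 3L from 17589909 to 17590491 (score 127), 19.9 kb from Pol II, with an Sd centre 14 bp from its own. The next, on X from 20631301 to 20631884 (score 124), was 103 kb from Pol II and 299.7 kb from the nearest other site of its class. It combined a top rank with isolation from both kinds of neighbour.

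Among the others, sites at 21070326 to 21070958 of 2R and 8903962 to 8904402 of 3R scored 122 and 120.4. The fifth, on 3R from 2585204 to 2585635, scored 119.7 and was the one of the 10 nearest to Pol II, at 3403 bp. The seventh was on chromosome 4 from 507029 to 507612, with a score of 113, and stood in a chain of 4 such sites. The remaining 4, with scores between 112 and 115, spanned 20090345 to 20090752 of 3L and 13275123 to 13275511, 3172134 to 3172598 and 12574263 to 12574680 of 3R. Arm 3R thus held 5 of the 10, beside 23.7% of all Pol II-free shared sites.

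Within the Yki peak, Sd sat near the middle. The 1250 sites held 1322 Sd peaks in 1325 overlapping pairs, and no Sd peak among them touched Pol II. In 1199 pairs the Yki peak enclosed the whole Sd peak, or 90.5% (88.8 to 92.0), against 96.6% (95.4 to 97.6) of 1178 pairs at triple sites. In 37 pairs the Sd peak was the wider one. The Sd centre fell in the central part of the Yki peak, from 33.3 to 66.7% of its width, in 70.0% of pairs (67.4 to 72.4), against 60.9% (58.0 to 63.7) at triple sites, and within 10% of either end in 2.19%. Of 10 equal bins along the Yki peak, bins 5 and 6 held 27.9% and 25.7% of the Sd centres. Yki and Sd centres were separated by a median of 46 bp (40.5 to 52.5), against 83.3 bp (70.5 to 94.0) at triple sites. With the upper 50% of Sd peaks by score the median at Pol II-free shared sites was 30.5 bp. Sd covered a median of 55.8% of the Yki peak, against 42.8% at triple sites.

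**Figure D2:**
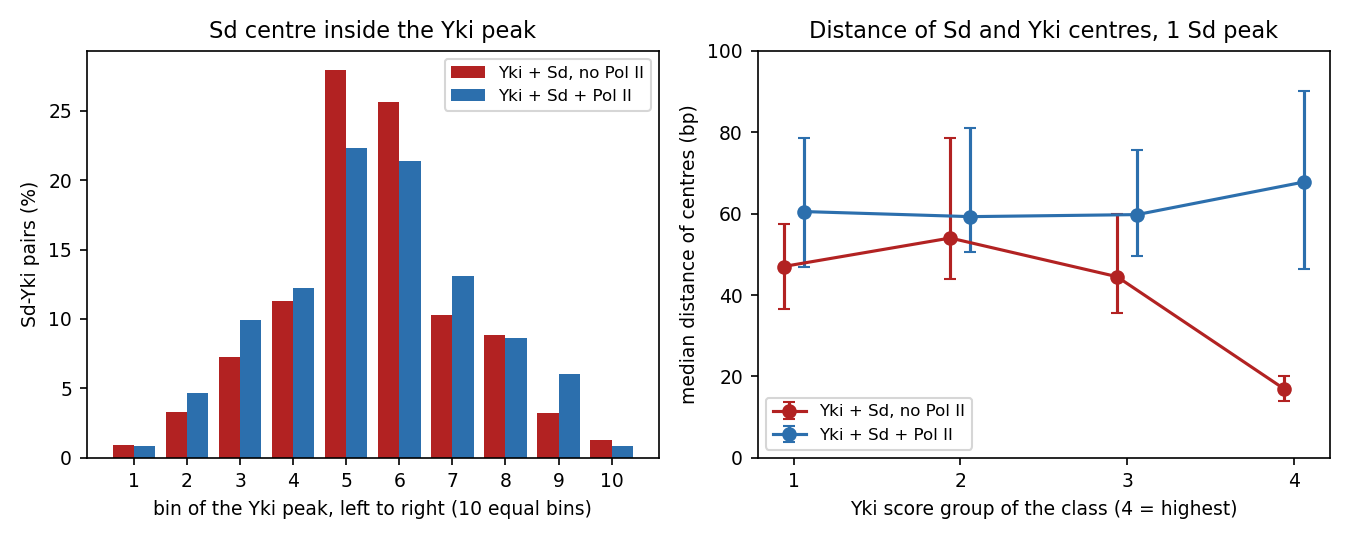
Left, percent of Sd and Yki pairs by the bin of the Yki peak (10 equal bins) that holds the Sd centre; both classes peak in the middle bins, the Pol II-free shared sites (red) more sharply. Right, median distance between Sd and Yki centres (bp) by Yki score group for sites with 1 Sd peak, with 95% intervals; it falls to 17 bp in group 4 of Pol II-free shared sites and is 67.8 bp in that of triple sites.

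The centring was tightest at the sites of highest score. With 1 Sd peak per site, the median distance of the centres was 47, 54 and 44.5 bp in score groups 1 to 3 and 17 bp (14 to 20) in group 4. In that group 227 of 297 sites had centres within 50 bp, or 76.4% (71.2 to 81.1). At triple sites the median stayed between 59.3 and 67.8 bp over the 4 groups, and in group 4 46.1% (39.9 to 52.4) were within 50 bp.

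Narrow peaks leave little room between centres, so the distances were also set side by side within classes of width, a comparison chosen after the values were seen. At scores of at least 55.3, the limit of group 4, sites 400 to 600 bp wide had a median distance of 13.5 bp without Pol II (9.50 to 17, n = 110) and 28.3 bp with it (22.5 to 36.5, n = 122). For widths of 600 to 1000 bp the medians were 61.5 bp (43.5 to 102, n = 55) and 127 bp (112 to 145, n = 114). Median widths without and with Pol II were 462.5 and 508.5 bp in the narrower of these classes, so width was not equal there. In the wider class they were 771 and 769.5 bp. Under 400 bp the median distances were 9.50 and 8.50 bp, with 24 triple sites in that class. At 1000 bp or more they were 240 bp and 309 bp, with overlapping intervals. Below that score, the medians of the 2 classes had overlapping intervals in each of the 4 width classes. The closer centring without Pol II was therefore seen at high score and middle width.

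The side of the Yki peak on which Sd lay was also compared with the side of the nearest Pol II peak. Over sites with 1 Sd peak, the Sd centre was shifted toward the nearest Pol II peak in 582 of 1184 cases, or 49.2% (46.3 to 52.0), an interval that includes 50%. At triple sites with 1 Sd and 1 Pol II peak it was shifted toward the Pol II centre in 37.3% (34.1 to 40.5) of 915 cases. The Pol II-free shared sites closest to Pol II lay between these values. With Pol II less than 0.5 kb away Sd was shifted toward it at 40.2% of 92 sites (30.1 to 51.0), at 0.5 to 1 kb at 39.8% of 93 (29.8 to 50.5), and at 5 to 20 kb at 52.9% of 463 (48.3 to 57.5). The intervals of the nearest classes reach 50%.

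Several Sd peaks in 1 Yki peak were uncommon. Of the 1250 sites, 63 held 2 or more, or 5.04% (3.89 to 6.40), beside 5.76% of all Yki peaks with Sd; 55 held 2, 5 held 3, 2 held 4 and 1 held 5. Sites with 2 or more were wide, with a median of 1266 bp against 506 bp for those with 1, while their median Yki scores were closer, at 40.2 and 34.9. Neighbouring Sd centres within 1 site were a median of 586 bp apart (quartiles 469 and 796, 75 pairs) and never nearer than 313 bp. Called Sd peaks do not overlap one another, so their widths set a lower limit to this spacing. The median gap between their edges was 241 bp.

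The 3 widest sites were all of this kind. The site with 5 Sd peaks spanned 3342 bp on 2L from 12004565 to 12007906, with a Yki score of 86.5. Its Sd centres lay 296, 1220, 1855, 2543 and 3013 bp from the left end, with Sd scores of 8.79, 10.6, 5.81, 5.08 and 9.36. They were thus strung along the whole peak rather than gathered in its middle. The widest, 4492 bp on 3L from 617728 to 622219 (Yki score 77.5), held 4 Sd peaks with scores of 3.83, 11.5, 5.53 and 5.68, and ended 6060 bp short of a Pol II region 15479 bp wide. Between these 2 in width was a 4133 bp site on 3R from 17473737 to 17477869 with 3 Sd peaks and a score of 65.9. The other sites named for 3 or more Sd peaks spanned 9450721 to 9452544 of 2R with 4, and 606914 to 608987 of 3L and 18867423 to 18869550 of X with 3 each. In the last of these the strongest Sd peak, at 14.2, was the one nearest the right end.

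Most Pol II-free shared sites lay several kilobases from Pol II. The gap to the nearest Pol II peak had a median of 6382 bp (5870 to 7234; quartiles 2049 and 15299). It was at least 1 kb for 84.6% of sites, at least 5 kb for 57.0%, at least 10 kb for 37.8%, at least 20 kb for 18.0% and at least 50 kb for 3.92%. Sites beside Pol II were few: 192 of 1250 lay within 1 kb and 7 within 100 bp.

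At the boundary of the rule, the 5 nearest sites were separated from Pol II by 16, 34, 41, 43 and 53 bp. In that order they spanned 2539663 to 2540550 and 10665734 to 10666436 of X, 20407603 to 20408348 and 26071742 to 26072226 of 3R, and 19216334 to 19216922 of 2R. Their Yki scores ran from 24.0 to 42.6, and in each of the 5 the Sd centre lay on the side away from Pol II. Just on the other side of the rule, the 5 triple sites with the smallest overlap shared 15, 27, 28, 37 and 64 bp with Pol II, with Yki scores from 11.1 to 61.3. Of the 1095 triple sites, 11 shared under 100 bp, and the median was 401 bp.

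At the far end, the 4 largest gaps, 319 kb to 1.00 Mb, were on Uextra, a set of unplaced scaffolds joined end to end, where distances have no physical meaning, and the fifth, 203 kb, was in heterochromatic 3LHet. On the chromosome arms the farthest site was a 1172 bp peak on 2L from 15910886 to 15912057 with a Yki score of 50.0, 138 kb from Pol II. The X site of score 124 ranked 3, at 103 kb. Ranks 2, 4 and 5 shared 1 stretch of 2R, at 15826447 to 15827505, 15818971 to 15819730 and 15800940 to 15801495, with gaps of 105, 97.5 and 79.5 kb to Pol II. Their scores of 35.5, 6.98 and 13.0 were unlike the X site's, so remoteness went with high as well as low score.

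The median Yki score was lowest at the longest gaps but did not fall steadily. It was 38.0 at under 0.5 kb, 38.4 at 0.5 to 1 kb, 33.1 at 1 to 2 kb and 36.8 at 2 to 5 kb. At 5 to 10 kb it was 36.3, at 10 to 20 kb 34.9, at 20 to 50 kb 31.9 and at 50 kb or more 27.9. These classes held 96, 96, 118, 227, 241, 247, 176 and 49 sites. The median width in the same classes was 518, 545, 514.5, 499, 529, 544, 547 and 561 bp. The median best Sd score was 7.25, 7.61, 6.36, 7.77, 7.29, 7.49, 7.30 and 6.02. No intervals are given for these medians.

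Sites with Sd lay farther from Pol II than Yki-only sites, whose median gap was 4733 bp (4412 to 5073), a ratio of 1.35. The share of Yki peaks outside Pol II that carried Sd was 14.9% (12.2 to 17.9) within 0.5 kb of Pol II, 22.5% at 0.5 to 1 kb, 25.0% at 5 to 10 kb and 27.4% (24.6 to 30.5) at 10 to 20 kb. It was 26.3% (20.2 to 33.3) at 50 kb or more, so the share differed most between the first class and the rest.

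Because Sd overlap follows Yki score, the distances were also compared at like score. The ratio of the median gaps, with Sd over without, was above 1 in 9 of 10 deciles of Yki score (median 1.57, highest 2.38 in decile 5). The intervals of the 2 medians did not overlap in decile 5 and overlapped in the other 9. In the highest decile the ratio was 0.721, with a median gap of 5978 bp (5071 to 7147) for 371 sites with Sd and 8287 bp (5986 to 11412) for 101 without. Within deciles of Yki width the ratio was above 1 in 10 of 10 (median 1.37, range 1.04 to 1.81). The intervals of the 2 medians overlapped in each of these width deciles. The Sd share gave the same picture. With all Yki peaks split by score into 5 groups of equal size, group 5 the highest, it was, in group 3, 17.8% (13.6 to 22.7) under 2 kb from Pol II, 22.5% at 2 to 10 kb and 32.0% (26.5 to 37.9) at 10 kb or more. In group 4 it was 29.5, 34.2 and 43.7%. In group 5 it was level, at 66.8, 68.3 and 67.6%. In groups 1 and 2 the share was 2.70 and 8.64% under 2 kb and 5.40 and 13.7% at 10 kb or more, with overlapping intervals. Sites with Sd thus tended to lie farther from Pol II below the highest Yki scores and not among them. In these comparisons at like score, intervals were separate only in decile 5 and in groups 3 and 4.

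**Figure D3:**
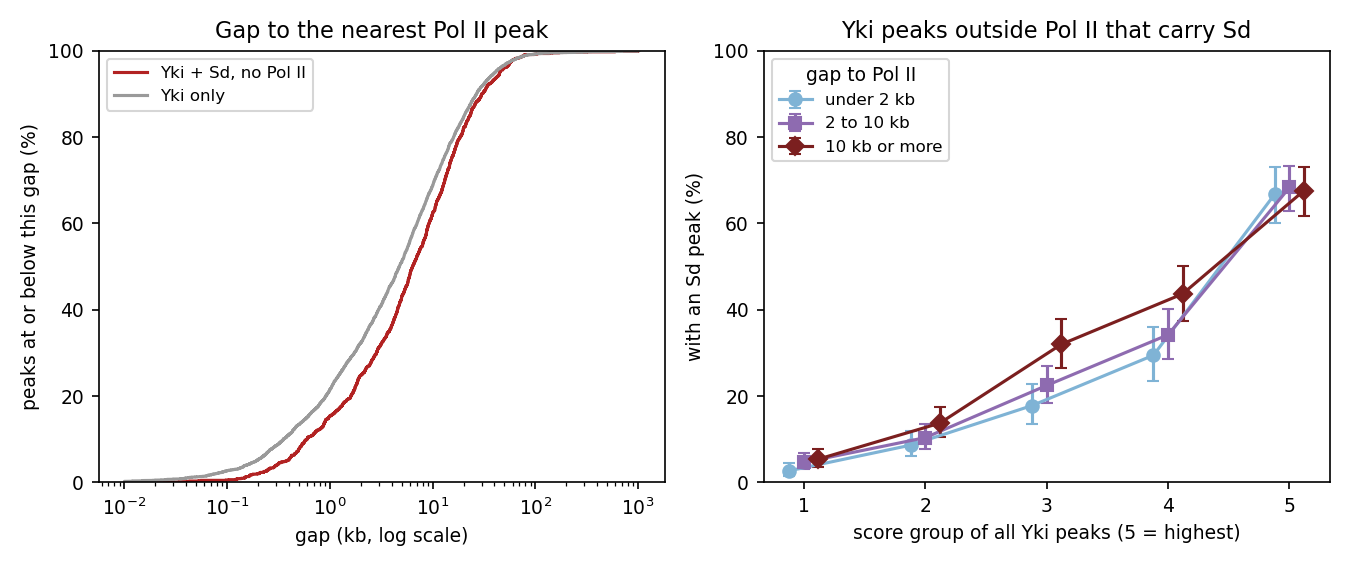
Left, cumulative percent of peaks by gap to the nearest Pol II peak (kb, log scale; gaps under 10 bp drawn at 10 bp) for Pol II-free shared sites (red) and Yki-only sites (grey); medians are 6382 and 4733 bp. Right, percent of Yki peaks outside Pol II that carry Sd by score group and gap class, with exact 95% intervals. In groups 3 and 4 the intervals of the shortest and longest gap classes are separate, and that of the middle class overlaps both. In group 5 the classes meet, at 66.8 to 68.3%.

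The stretches between neighbouring Pol II peaks that held these sites were long. The 10091 stretches had a median of 2350 bp, while the stretch around a Pol II-free shared site had a median of 37.4 kb (quartiles 18.4 and 72.4 kb) and that around a Yki-only site 31.1 kb. A long stretch offers more bases, so any list of positions falls mostly in long ones. Per Mb of stretch, sites numbered 6.01 in stretches under 5 kb, 10.6 at 5 to 10 kb, 14.5 at 10 to 20 kb, 13.5 at 20 to 50 kb, 10.9 at 50 to 100 kb and 2.89 at 100 kb or more. The highest density was therefore at intermediate length, but this was not particular to sites with Sd. Yki-only sites numbered 38.0, 46.4, 51.2, 43.3, 29.1 and 8.45 per Mb in the same classes, also highest at 10 to 20 kb. The share of Yki peaks outside Pol II that carried Sd had another shape. It was 13.7, 18.6, 22.1, 23.9, 27.3 and 25.5% in these classes. Of the stretches of 50 to 100 kb, 41.9% held at least 1 Pol II-free shared site, and of those under 5 kb 0.710%.

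Of the 1244 sites with a Pol II peak on both sides, 562 were alone in their stretch and 682 shared it with another. The fullest stretch, 159 kb on 3R from 6240616 to 6399909, held 8 such sites with Yki scores from 10.3 to 92.7, and 14 Yki-only sites. A 104 kb stretch on 2L from 14495286 to 14599541 held 7, beside 19 Yki-only sites. The shortest of the 5 fullest, 26.2 kb on 3L from 17992765 to 18018982, also held 7, beside 2. It was the most crowded of the 5 for its length.

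The Pol II peaks nearest to these sites were high-scoring ones. Their median Pol II score was 77.7, against 30.2 for all Pol II peaks, and 70.1 for those nearest to Yki-only sites. Of the nearest Pol II peaks, 79.5% carried a Yki peak and 16.1% an Sd peak, against 63.3 and 9.90% of all Pol II peaks. For Yki-only sites the shares were 78.8 and 13.9%, so these features of the neighbour were much the same with and without Sd. Pol II peaks that border long stretches are counted more often this way.

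The gap from a Pol II-free shared site to the nearest other of its class was a median of 14.4 kb (13.1 to 16.1), with quartiles of 3843 and 49425 bp. This spacing depended on how many Sd peaks were kept, and was 38886 bp with the upper 50% by score. It was under 1 kb for 12.2% (10.4 to 14.1) and under 10 kb for 523 of 1249. Triple sites, of which there were fewer, were a median of 25.0 kb (22.8 to 28.3) from another triple site, and 6.86% (5.44 to 8.53) had one within 1 kb. The nearest triple site was a median of 39.8 kb from a Pol II-free shared site, farther than the nearest other site of its own class. Triple sites lay within 10 kb of 20.8% of the sites.

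The nearest Yki peak of any class was a median of 1421 bp away (1217 to 1639). It was another Pol II-free shared site in 19.5% of cases, a class that forms 10.7% of Yki peaks. It was a Yki-only site in 48.6% (35.0% of the list), a Yki peak with Pol II but no Sd in 23.2% (44.9%) and a triple site in 8.64% (9.38%). At triple sites the order was different: 50.0% of nearest Yki peaks had Pol II without Sd and 9.32% were Pol II-free shared sites. Peaks outside Pol II necessarily lie together in the stretches between Pol II peaks, so a neighbour without Pol II is partly given by the rule. In genome order, both flanking Yki peaks were of the same class at 39 of 1246 sites, 1 was at 392 and neither was at 815.

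Joined at gaps of up to 10 kb, the 1250 sites formed 944 chains. Of these, 727 were single sites, 156 were pairs, 43 were triplets and 18 held more, counted as 11 of 4 sites, 5 of 5, 1 of 6 and 1 of 7. Thus 523 sites, or 41.8% (39.1 to 44.6), had company within 10 kb, and 211 stood in chains of 3 or more. With the upper 50% of Sd peaks by score, which leaves 702 sites, the share in chains was 24.9%. For the 1095 triple sites the share in chains was 28.0% (25.4 to 30.8).

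**Figure D4:**
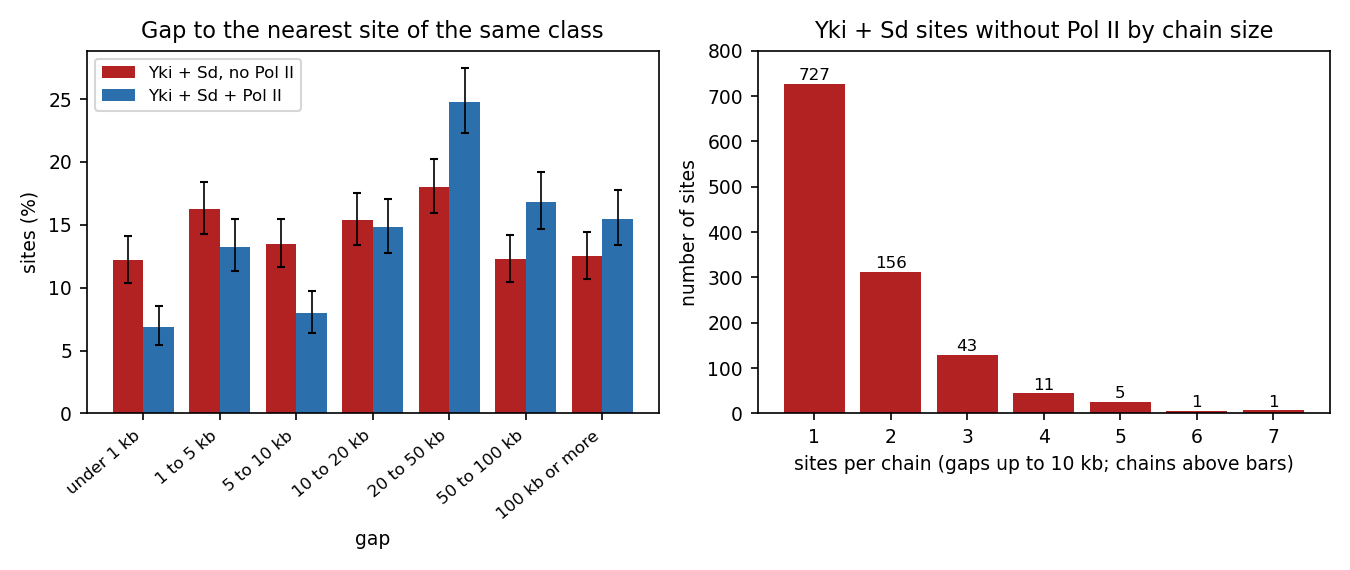
Left, percent of sites by gap to the nearest site of the same class, with exact 95% intervals, for Pol II-free shared sites (red) and triple sites (blue); under 1 kb the values are 12.2% and 6.86%. Right, number of Pol II-free shared sites by the size of their chain, with the number of chains above each bar; 727 sites stand alone and 523 are in chains of 2 or more.

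Chained sites were wider than lone ones, with similar median Yki scores. Median width was 474 bp for lone sites (452 to 502), 575 bp in pairs (538 to 629) and 703 bp in chains of 3 or more (604 to 771). Median Yki score was 36.8 (34.4 to 39.3), 31.8 (28.7 to 36.2) and 35.7 (31.0 to 40.3), with overlapping intervals. The upper quartile of score was higher for lone sites, at 60.2, than in pairs (48.6) or longer chains (50.5). Widths were not compared at like score. At least 2 Sd peaks were present in 3.85% of lone sites and in 6.64% of those in chains of 3 or more.

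The fullest chain held 7 sites in 12.8 kb on 3L from 18000266 to 18013073, with no Pol II peak inside it. From left to right the Yki scores were 29.9, 8.07, 56.9, 19.4, 25.7, 57.6 and 76.8, and each site held 1 Sd peak. Weak and strong sites were therefore mixed within 1 chain, and the last 2 were 92 bp apart. Pol II was between 5909 and 11778 bp from each. The second chain, 6 sites in 19.1 kb on 3L from 14627017 to 14646076, had scores of 48.2, 42.0, 40.8, 38.6, 29.3 and 13.3, falling from left to right. A Pol II peak lay between the last 2 of them.

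The third chain had 5 sites in 20.5 kb on 3L from 606914 to 627389 and held the most Sd peaks of the 5, with 10. It included the widest site and a 2074 bp site with 3 Sd peaks, its Yki scores were between 35.3 and 82.3, and 42.6% of its length lay under these sites. It ended 890 bp before the 15479 bp Pol II region named above. The other 2, with 5 sites each, spanned 11171996 to 11188828 of 2L and 14217107 to 14232778 of 2R. Both held 5 Yki-only sites among their members, no Pol II peak, and a gap to Pol II of at least 14601 and 10944 bp.

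**Figure D5:**
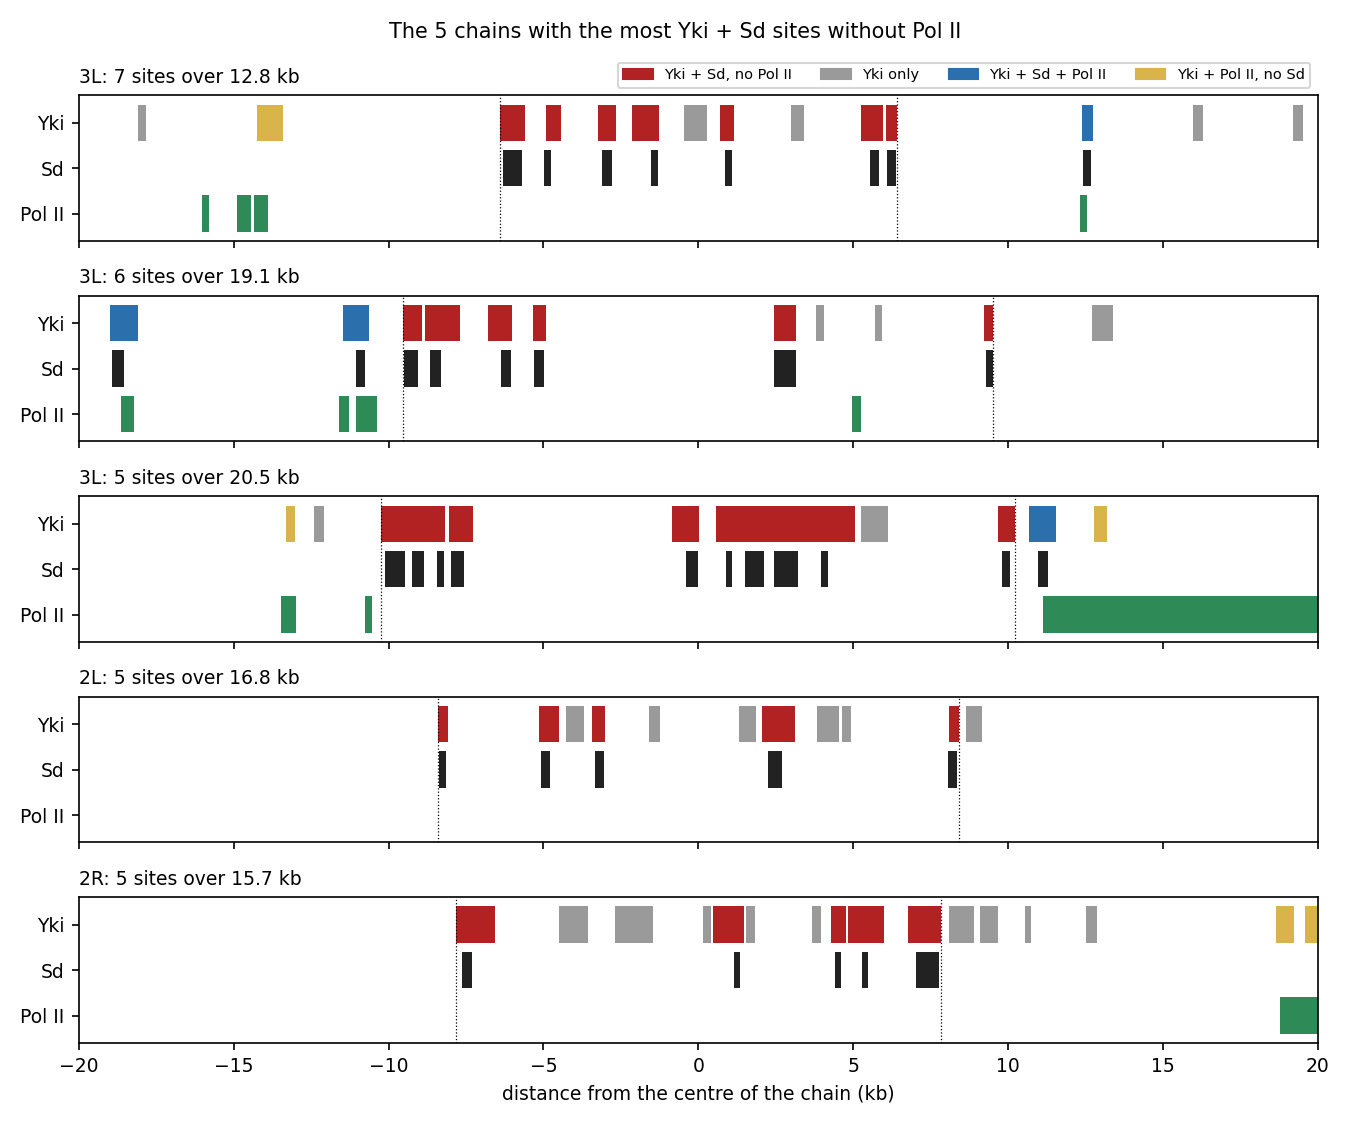
Yki, Sd and Pol II peaks around the 5 fullest chains, by distance from the chain's centre (kb); dotted lines mark the chain's ends and colours give the class of each Yki peak. The chains hold 7, 6, 5, 5 and 5 Pol II-free shared sites (red), and a Pol II peak falls inside the second.

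Along the chromosomes, sites of this class were found on every arm. Density was 8.70 per Mb on X, 9.32 on 2R, 9.67 on 2L, 10.6 on 3R, 12.5 on 3L and 14.8 on chromosome 4. The share of Yki and Sd shared peaks that lacked Pol II was highest on 3L, at 60.8% (56.4 to 65.1), and 3R, at 58.0% (53.6 to 62.4). It was 51.6% on 2L, 50.3% on 2R, 47.3% (42.4 to 52.3) on X and 39.2% (25.8 to 53.9) on chromosome 4, where Pol II peaks were densest. Pol II peaks per Mb numbered 75.9 on 3L, 84.5 on 3R, 76.4 on 2L, 93.5 on 2R, 80.4 on X and 145 on chromosome 4. A relation of the share to this density was not tested. Median Yki score differed little between the larger arms, from 32.5 on 3L to 36.8 on X. Heterochromatic and unplaced sequence held 14 of the sites.

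The number of these sites varied widely along the arms. Of 1206 windows of 100 kb, 562 held none, 322 held 1, 169 held 2 and 153 held 3 or more. The last group, 12.7% of windows, held 46.6% of the sites. The fullest 10% of windows held 38.6% of the Pol II-free shared sites, and those fullest in triple sites held 37.5% of the triple sites. Windows with more Pol II-free shared sites also held more Yki peaks. Their mean was 7.10 Yki peaks with none, 10.0 with 1 site, 11.8 with 2 and 15.3 with 3 or more. The sites are Yki peaks themselves and are counted in these means, so part of the rise is given by definition. The 5 fullest windows were on 3L from 18000001 to 18100000 with 9 sites, on 2R from 14100001 to 14200000, on 3L from 2800001 to 2900000 and on 3L from 14600001 to 14700000 with 8 each, and on 2L from 14500001 to 14600000 with 7. These 5 held 8, 11, 4, 10 and 1 Pol II peaks, so they ranged from nearly Pol II-free to ordinary.

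The number of these sites in a window did not follow that of Pol II peaks. Windows with 0, 1 to 4, 5 to 9, 10 to 14 and 15 or more Pol II peaks held means of 0.420, 1.05, 1.17, 1.22 and 0.849 sites. Over the same windows the mean number of triple sites, which need a Pol II peak by definition, rose from 0 to 1.70. The mean number of Yki peaks rose too, from 6.04 with 1 to 4 Pol II peaks to 15.98 with 15 or more. Over these classes the share of Yki and Sd shared peaks without Pol II was 72.7, 58.0, 48.9 and 33.3%. The rule removes Yki peaks that meet Pol II, so the count of Pol II-free shared sites also depends on Pol II by definition. Across the windows, which are not independent, the Spearman rho with the Pol II count was 0.062 for Pol II-free shared sites (Pearson r -0.0023) and 0.52 (0.51) for triple sites. Between the 2 kinds of shared site it was 0.040 (0.035).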

How the data were processed

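ChIP-seq peak lists for Yki, Sd and Pol II, 1 library each, were used as deposited. Per the labels' protocols, fixation was in 2% formaldehyde (30 minutes), and 10 µg of antibody met the chromatin of about 300 discs per immunoprecipitation. The tools were CASAVA 1.8.2, Bowtie and MACS2, on build dm3, per the submitters' processing notes; parameters, control library and filters were not given in the sources used here. The authors deposited a start, an end and a score per peak; the score depends on the library's depth, which also sets how many peaks are called.

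Peaks were joined at 1 bp or more, gaps measured edge to edge, and sites chained at gaps of up to 10 kb, in Python 3.11.15 with pandas 2.3.3, numpy 2.4.6, scipy 1.17.1 and matplotlib 3.10.9; the code was checked on simulated data. Chromosome lengths were the last peak end in any list. Coordinates are 1-based. The members, lists and rule for named sites (10 highest Yki scores, 5 farthest from and 5 nearest to Pol II, 3 widest, up to 5 with 3 or more Sd peaks, 5 fullest chains and windows) were chosen with earlier results of these data known. The fullest Pol II-free stretches, the sites farthest from Pol II on the arms and the width and score classes were chosen after their values were seen.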

Additional observations from a re-analysis of the deposited data

How the results depend on the processing

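Each result was compared with its own 95% interval, or for the number of sites with a factor of 1.5, over 44 pairs of a result and an alternative, of which 33 stayed within these bounds. Keeping the upper 50% of Sd peaks by score moved the most, to 702 sites, a median width of 490 bp, a median centre distance of 30.5 bp, a median spacing of 38886 bp and 24.9% of sites in chains; fewer Sd peaks leave fewer sites to neighbour each other. With the upper 50% of Pol II peaks the median gap to Pol II was 7484 bp, and with sites at least 1 kb from Pol II, which removes the short gaps, 8715 bp. Taking the Sd peak of highest score per site gave a centre distance of 40.3 bp. Chain gaps of 5 and 20 kb put 28.4 and 57.2% of sites in chains. Within deciles of Yki score the ratio of Pol II gaps, with Sd over without, was 1.57. The number of sites otherwise lay between 1058 and 1547, the latter with peaks of 200 bp. No paired analysis was possible because no antibody had a second library. Depth is not known, and a site without a peak is one where none was called.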
